A study of Rattus norvegicus with 75 samples.

Results

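The 8 genes described here are the 4 Id genes (Id1, Id2, Id3 and Id4) and 4 genes whose products restrain signalling by bone morphogenetic proteins (Grem1, Smad6, Smad7 and Bambi). They were taken by symbol from the 32754 genes of the expression table, where each symbol stands on 1 row. They were chosen by measured values of these data, namely the lithium response of the cortical collecting duct at 72 and 12 h and the spread between its untreated libraries at 72 h. Comparisons with those libraries in an arm are therefore given as levels and differences with no p-value. The number of the 8 genes past the threshold in these comparisons is a description beside the share of all genes past it. P-values for the CCD at other times take part of their spread from the 12 h libraries.

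Bone morphogenetic proteins (BMPs) bind paired type I and type II receptors that phosphorylate Smad1 and Smad5, and these enter the nucleus with Smad4 and raise transcription of target genes, among which the Id genes are the best known. Id proteins lack a DNA-binding region and hold basic helix-loop-helix transcription factors in inactive pairs, and they are associated with growth and with delayed differentiation. The pathway is restrained at several steps: Grem1 is a secreted protein that binds BMPs, Bambi is a membrane protein that resembles a type I receptor without a kinase, and Smad6 and Smad7 are inhibitory Smads that act at the receptors and are themselves induced by the pathway.

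RNA-seq was made from 75 libraries of tubules dissected by hand from kidneys of male Sprague-Dawley rats of 120 to 160 g. The segments sampled were the cortical collecting duct (CCD, 53 libraries), which holds principal and intercalated cells and sets final water and acid excretion, and the cortical thick ascending limb (cTAL, 22 libraries), which reabsorbs salt. Rats ate food with lithium chloride at 40 mM per kg of food or the same food without it, and lithium is known to make the collecting duct resistant to vasopressin. The design asks which signals arise in the CCD as that state begins.

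The 10 groups were control CCD at 12 h (3 libraries), 24 h (3), 36 h (3) and 72 h (17), lithium CCD at 12 h (2), 24 h (3), 36 h (3) and 72 h (19), and at 72 h control cTAL (12) and lithium cTAL (10). Every rat was kept alone on a 12 h light and 12 h dark cycle. Which libraries share a rat is not in the labels, and a p-value here measures no more than the spread between libraries. Values are TPM, the share of a library's transcripts after scaling for transcript length, and differences are on the scale log2(TPM + 1), which understates changes of genes near 1 TPM such as Smad7. In tissue RNA, fewer cells of a type and less RNA per cell cannot be told apart.

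The libraries matched their labelled segment. In control CCD at 72 h, 10 principal cell markers summed to 11875 to 19090 TPM and the thick ascending limb markers to 43.5 to 196 TPM, while in control cTAL these sums were 68.0 to 174 TPM and 52153 to 87706 TPM. Some genes outside the 8, namely Pfdn6, Repin1, Mrps10, H3f3c and Slc39a1, were either high or low in a library with little between, and their states split each 72 h group into 4 runs of libraries, called sets 1 to 4 here. In the control CCD these were libraries 1 to 4, 5 to 8, 9 to 12 and 13 to 17, and the 4 control sets of the cTAL had the same 4 patterns of states, as did the lithium sets of both segments with each other. Sets were found from the data and are not groups of the study, and the labels do not say what they are. Genes whose states split a group at 12, 24 or 36 h were left out of the definition, so each of those groups is a single set by construction. Each had a pattern of its own, so there a set and lithium cannot be told apart.

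The bases before the start of transcription of Id1, Id2 and Id3 are printed because these genes carry most of what follows. They are the 250 bases upstream of the start in RefSeq's table of promoters (build GRCr8), from chr3:161671314-161671563 on the plus strand for Id1, chr6:47470996-47471245 on the minus strand for Id2 and chr5:153656041-153656290 on the plus strand for Id3. Capitals mark the letters CCAAT on either strand (ATTGG on the strand shown) and TATAAA.
Id1: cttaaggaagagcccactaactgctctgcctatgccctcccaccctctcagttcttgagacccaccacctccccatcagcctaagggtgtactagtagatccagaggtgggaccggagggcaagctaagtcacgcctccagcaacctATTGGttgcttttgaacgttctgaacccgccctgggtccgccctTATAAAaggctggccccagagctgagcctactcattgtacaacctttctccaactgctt
Id2: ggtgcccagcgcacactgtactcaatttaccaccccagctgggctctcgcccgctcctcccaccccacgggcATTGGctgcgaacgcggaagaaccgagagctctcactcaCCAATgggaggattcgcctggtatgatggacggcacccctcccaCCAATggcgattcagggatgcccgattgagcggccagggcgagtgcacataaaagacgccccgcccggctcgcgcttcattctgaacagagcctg
Id3: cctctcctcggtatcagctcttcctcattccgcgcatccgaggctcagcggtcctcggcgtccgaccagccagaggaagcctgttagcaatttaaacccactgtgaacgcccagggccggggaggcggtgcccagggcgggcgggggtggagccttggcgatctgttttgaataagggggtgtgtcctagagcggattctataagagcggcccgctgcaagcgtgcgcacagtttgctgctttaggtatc

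Of the 8 genes, 7 were in that table and Smad6 was not. Motifs were searched on both strands over 250 bases before to 50 bases after the start, in the 8 genes and in all 33469 promoters, with the sequences already seen. CCAAT occurred once before Id1, 3 times before Id2 and once before Grem1, and 37.5% of all promoters held it. TATAAA occurred before Id1, against 14.2% of all promoters. GGCGCC, the core letters of a described site of BMP-activated Smads, was in none of the windows of Id1, Id2 and Id3. It was found once each for Id4, Grem1 and Bambi and 2 times for Smad7, against 11% of all promoters. The Smad box repeat GTCTAGAC, the cAMP response element TGACGTCA, and GCGTGGGCG and GCGGGGGCG of the Egr family were in none of the 7 windows. Upstream G and C content was 54.8% for Id1, 62.8% for Id2 and 61.2% for Id3.

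**Figure D1:**
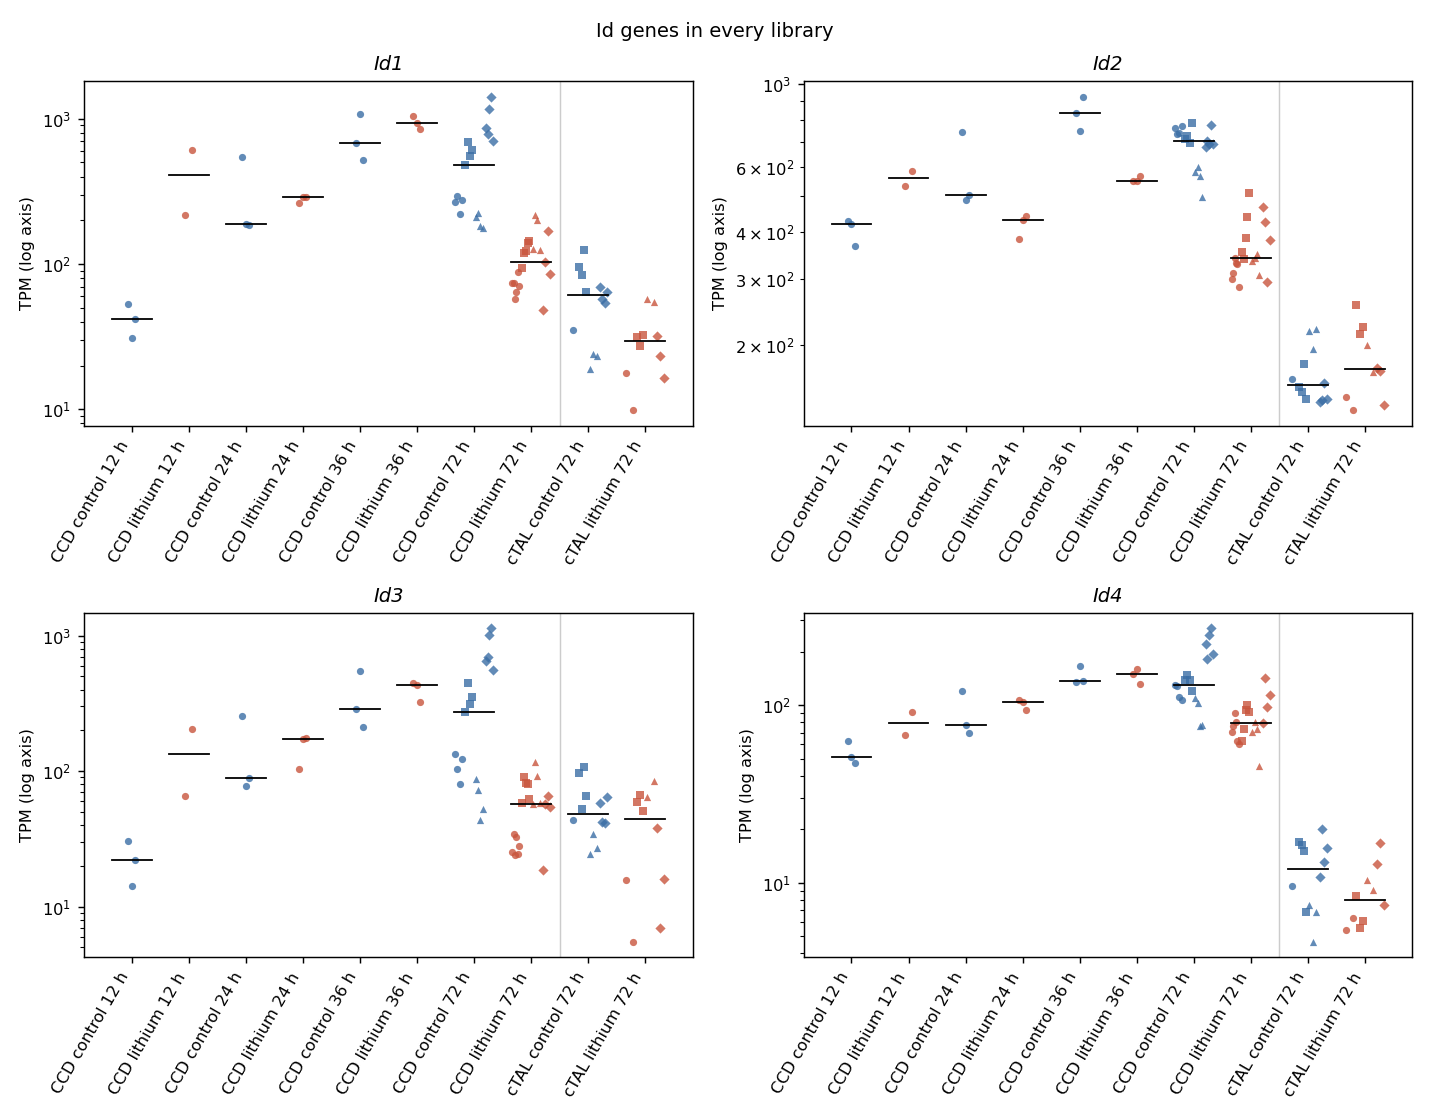
TPM of Id1, Id2, Id3 and Id4 in each of the 75 libraries (vertical log axis) by group (horizontal axis), with control in blue, lithium in red, circles, squares, triangles and diamonds for library sets 1 to 4 at 72 h, and a bar at the group median. Id1 and Id3 span the widest range, and the diamonds of control CCD set 4 hold their highest values at 72 h, 704 to 1417 TPM for Id1 and 559 to 1130 TPM for Id3.

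The untreated CCD already differed widely in Id1 and Id3. Id1 was 52.8, 31.1 and 41.7 TPM in the 3 control libraries at 12 h, 541, 190.0 and 184 TPM at 24 h and 682, 1071 and 516 TPM at 36 h, and at 72 h it ran from 178 TPM through a median of 481 TPM to 1417 TPM. Id3 was 30.5, 14.2 and 22.1 TPM at 12 h, 256, 77.1 and 88.8 TPM at 24 h, 289, 544 and 211 TPM at 36 h and 43.4 to 1130 TPM with a median of 273 TPM at 72 h. The 12 h controls were the lowest for both genes and did not overlap any other control CCD group, and control library 1 stood above the other two at 24 h for Id1, Id2, Id3 and Id4.

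Id2 was steadier. It was 429, 422 and 367 TPM in the 12 h controls, 746, 489 and 505 TPM at 24 h, 835, 748 and 925 TPM at 36 h and 499 to 788 TPM with a median of 703 TPM at 72 h. Id4 was 62.9, 50.8 and 46.9 TPM at 12 h, 119.6, 77.2 and 69.4 TPM at 24 h, 135, 165 and 137 TPM at 36 h and 76.6 to 270.3 TPM with a median of 130.1 TPM at 72 h. Id1 and Id2 had their highest control mean at 36 h, and Id3 (361 TPM, against 348 TPM at 36 h) and Id4 (147 TPM, against 146 TPM) had theirs at 72 h, with ranges that overlapped.

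Among genes with a mean of at least 5 TPM, Id1 and Id3 had some of the largest spreads in every control CCD group. The SD of Id3 on the log2 scale was 0.53 at 12 h, 0.94 at 24 h, 0.69 at 36 h and 1.53 at 72 h, larger than that of 97.5%, 99.0%, 98.9% and 99.4% of genes in the same libraries. For Id1 the SDs were 0.37, 0.88, 0.53 and 0.98, larger than those of 94.0%, 98.9%, 97.5% and 98.5% of genes. At 72 h the median gene had an SD of 0.29, while the SD was 0.18 for Id2 (larger than 16.2% of genes), 0.53 for both Id4 and Smad6 (89.8% and 89.6%), 0.41 for Bambi (77.7%) and 0.40 for Grem1 (75.3%). Id2 thus had less spread than most genes in the same 17 libraries in which Id1 and Id3 had more.

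**Figure D2:**
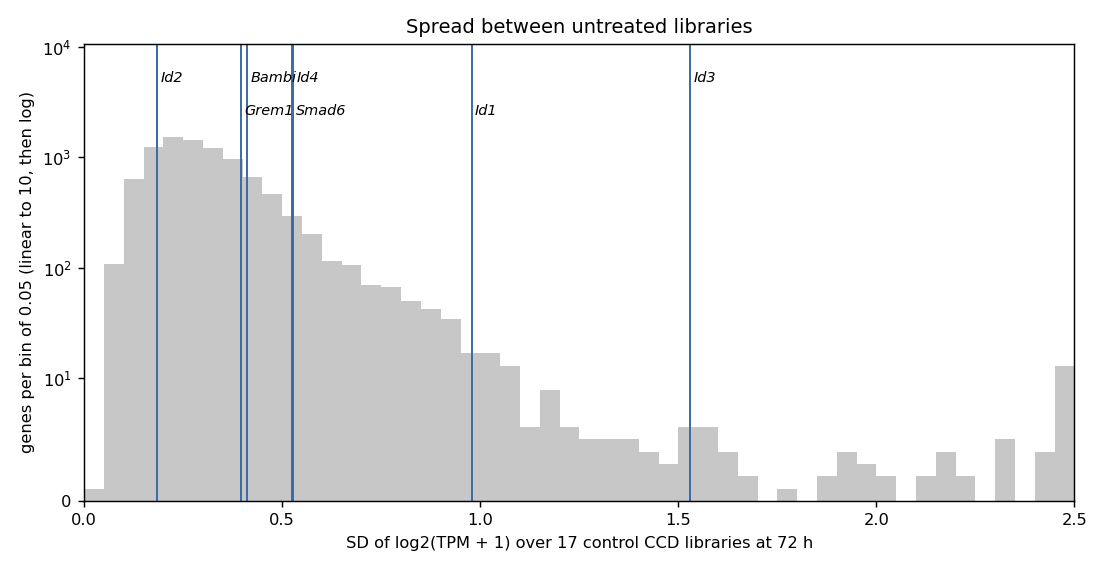
Histogram of the SD of log2(TPM + 1) over the 17 control CCD libraries at 72 h (horizontal axis) for the 9341 genes with a mean of at least 5 TPM (vertical axis, number of genes), with a line at each member ranked and the last bar holding all larger values. Id2 lies left of the median of 0.29, and Id1 (0.98) and Id3 (1.53) lie in the right tail.

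Most of this spread at 72 h lay between the library sets. Id1 averaged 264 TPM in control set 1 (221 to 294), 586 TPM in set 2 (481 to 693), 199.6 TPM in set 3 (178 to 226) and 988 TPM in set 4 (704 to 1417), and the range of set 4 lay above those of the other 3. Id3 followed with 110.3 TPM (80.1 to 134), 347 TPM (273 to 449), 64.0 TPM (43.4 to 88.1) and 809.9 TPM (559 to 1130). Both genes had the order set 4, set 2, set 1, set 3. Differences between sets made up 93.3% of the sum of squares of Id1 and 94.8% of that of Id3, and within a set the SD was 0.28 and 0.39.

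The same share was 87.6% for Id4, 85.0% for Smad7, 83.9% for Id2, 68.8% for Smad6, 53.8% for Bambi and 48.0% for Grem1, and over all genes its median was 34.2% and its 90th percentile 64.2%. Id4 had the order of Id1, with set means of 119, 136, 91.7 and 223 TPM. For Id2 set 3 was the low one, with 561 TPM against 752, 729.9 and 708 TPM in sets 1, 2 and 4. Bambi went the other way in part, with 53.8 and 49.3 TPM in sets 1 and 3 and 35.8 and 34.5 TPM in sets 2 and 4.

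The marker lists were summed over the same sets. The endothelial markers, from cells known for high Id1 and Id3, had medians of 44.5, 83.6, 49.8 and 51.2 TPM in control sets 1 to 4, and 8 of the 11 markers had a mean of 1 TPM or more and Cldn5 was at 0. Their sum ranged from 22.2 to 226 TPM over the 17 libraries. The summed immediate early genes had medians of 4675, 5403, 5878 and 4976 TPM. The part of either in the differences between sets was not tested.

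Over the 53 CCD libraries Id1 and Id3 moved together, with a Pearson r of 0.97 on the log2 scale, and over the 17 controls at 72 h r was 0.99. Id1 had an r of 0.83 with Id4, 0.75 with Id2, 0.66 with Smad6, 0.42 with Smad7, -0.15 with Bambi and -0.01 with Grem1 over the 53 libraries. Outside the 8 genes, the 5 of 8893 ranked genes most like Id1 were Car2 (0.82), Ech1 (0.77), Acer2 (0.76), Asic1 (0.75) and Asrgl1 (0.75). For Id3 they were Car2 (0.87), Ech1 (0.83), Acaa2 (0.78), Asrgl1 (0.78) and Litaf (0.77). Car2 encodes a carbonic anhydrase and Ech1 and Acaa2 encode enzymes of fatty acid oxidation. In the 17 controls alone r with Id3 was 0.88 for Car2, 0.96 for Ech1, 0.87 for Acaa2, 0.78 for Asrgl1 and 0.52 for Litaf. There r with Id1 was 0.90 for Car2, 0.94 for Ech1, 0.65 for Acer2, 0.59 for Asic1 and 0.80 for Asrgl1. Within the 8 genes, r with Id1 in these controls was 0.93 for Id4, 0.52 for Id2, 0.39 for Smad6, 0.75 for Smad7, -0.72 for Bambi and 0.12 for Grem1. The points share groups, library sets and depth, so these values describe these libraries and carry no test.

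**Figure D3:**
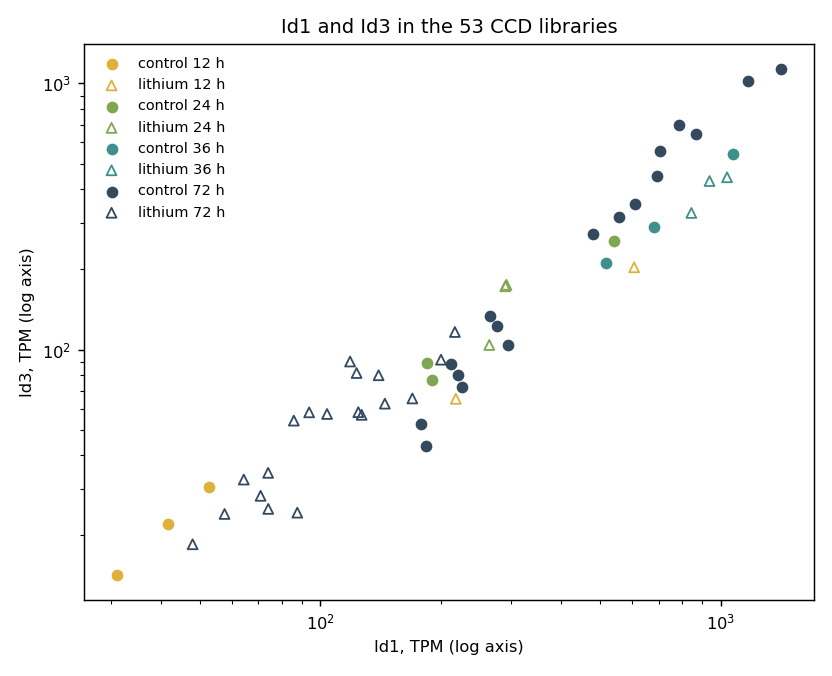
TPM of Id3 (vertical log axis) against TPM of Id1 (horizontal log axis) in the 53 CCD libraries, filled for control and open for lithium, coloured by time. The points lie along a line (Pearson r of 0.97), from the 12 h controls at the lower left to the controls of 72 h at the upper right.

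The antagonists had their own patterns in control CCD. Grem1 was 356, 341 and 395 TPM at 12 h, 684, 586 and 593 TPM at 24 h, 444, 528 and 327 TPM at 36 h and 119 to 301 TPM with a median of 174 TPM at 72 h, so that the 72 h controls lay below every earlier control. Smad6 was 18.8, 26.3 and 25.0 TPM at 12 h, 42.2, 33.4 and 32.0 TPM at 24 h, 41.9, 46.8 and 33.9 TPM at 36 h and 14.7 to 55.6 TPM at 72 h. Bambi was 32.7, 43.5 and 33.0 TPM, then 34.6, 44.7 and 46.5 TPM, then 31.7, 25.1 and 37.3 TPM, and 23.4 to 65.2 TPM at 72 h. The ranges of Smad6 and Bambi at the earlier times all fell within their ranges at 72 h.

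Smad7 was higher in set 4 than in the other sets of every group at 72 h. In control CCD at 72 h it was 2.85 to 7.04 TPM in the 5 libraries of set 4 and 0.69 to 2.55 TPM in the other 12, and in lithium CCD 2.20 to 3.40 TPM in set 4 and 0.44 to 1.03 TPM in the other 15. The cTAL showed the same, with 2.18 to 3.93 TPM against 0.30 to 0.88 TPM in controls and 1.96 to 3.30 TPM against 0.37 to 0.87 TPM under lithium. The ratio of the means was 3.74, 4.24, 4.50 and 4.67 in these 4 groups, whose set 4 libraries have the same pattern of states, and the ranges did not overlap in any of them. At 24 h, where all libraries of a group are 1 set, Smad7 was 5.06, 4.50 and 5.03 TPM in controls and 3.71, 3.78 and 4.73 TPM under lithium, and at 12 and 36 h no library exceeded 1.87 TPM.

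**Figure D4:**
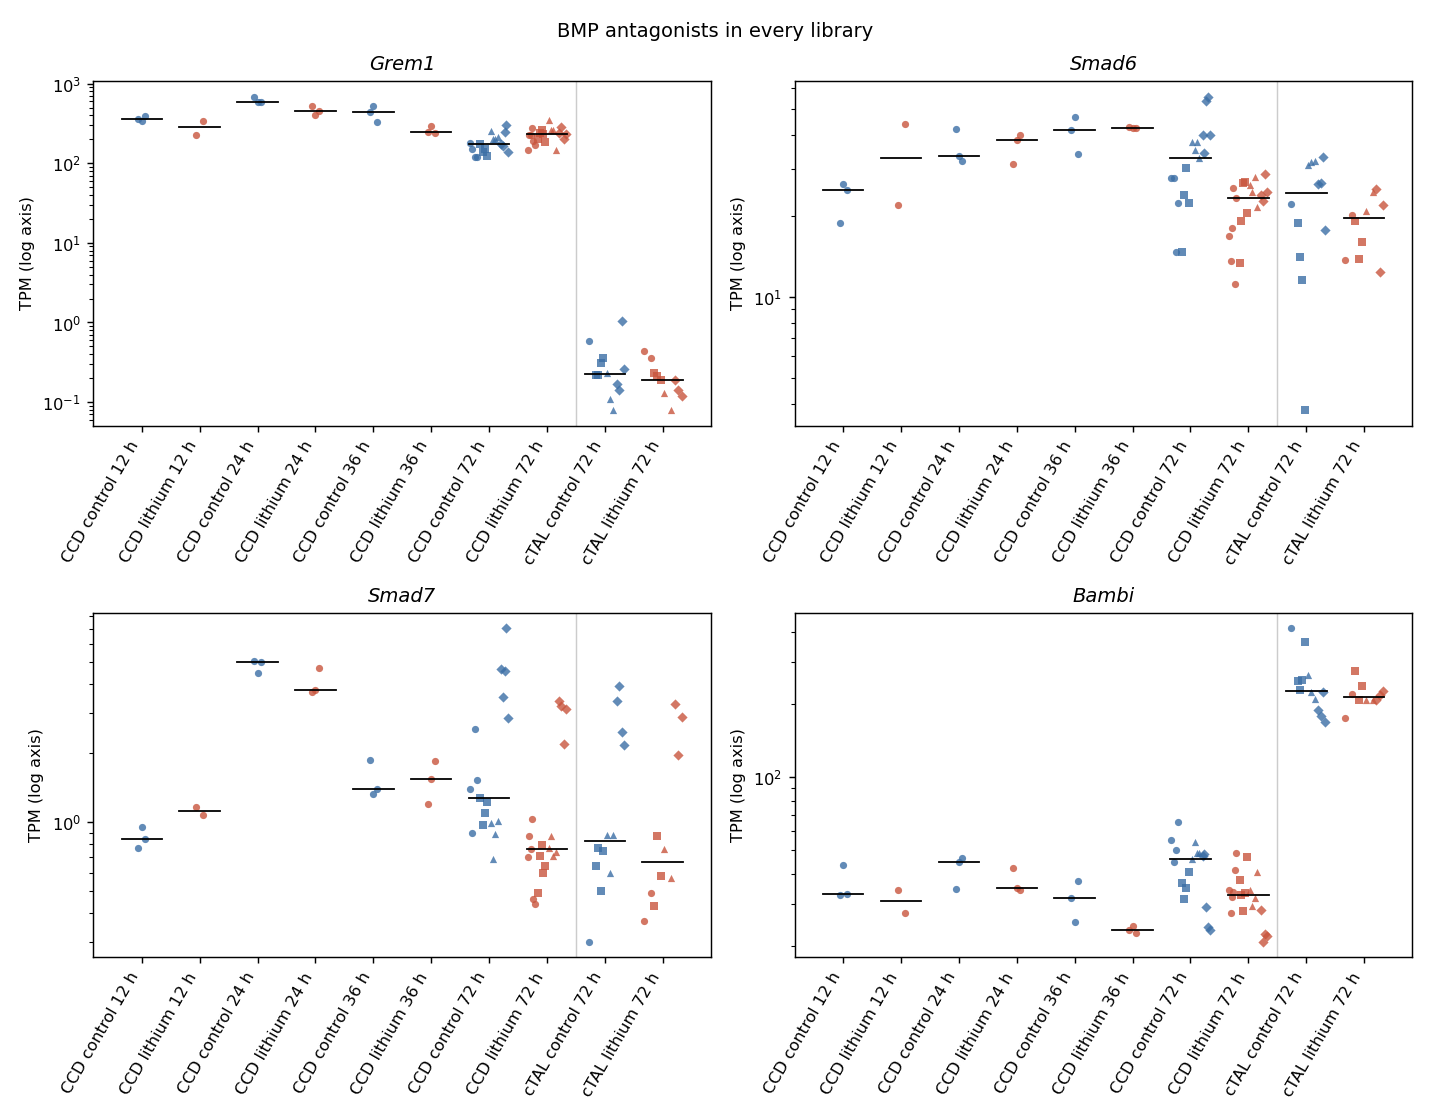
TPM of Grem1, Smad6, Smad7 and Bambi in each of the 75 libraries (vertical log axis) by group (horizontal axis), with colours, symbols and bars as in the plot of the Id genes. The diamonds of set 4 stand apart for Smad7 in all 4 groups at 72 h, Grem1 is at or under 1.05 TPM in every cTAL library, and Bambi is higher in the cTAL (169 to 412 TPM in controls) than in the CCD (23.4 to 65.2 TPM).

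The order of a gene's 10 group means is given here as a description. For Id1 it ran from lithium CCD at 36 h (939.9 TPM) through control CCD at 36 h (756 TPM), control CCD at 72 h (538 TPM), lithium CCD at 12 h (413 TPM), control CCD at 24 h (305 TPM), lithium CCD at 24 h (282 TPM), lithium CCD at 72 h (112 TPM), control cTAL (59.6 TPM) and control CCD at 12 h (41.8 TPM) to lithium cTAL (30.3 TPM). Of the 9 pairs of neighbours in this order, 1 did not overlap, lithium CCD at 24 h above lithium CCD at 72 h. For Id2 control CCD at 36 h was highest (836 TPM) and control cTAL lowest (167 TPM), and 2 of 9 neighbouring pairs did not overlap. The numbers were 1 of 9 for Id3, 3 for Id4, 2 for Grem1, 0 for Smad6, 1 for Smad7 and 2 for Bambi. No share over all genes stands beside these counts, so nothing is read from them.

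At 72 h of lithium the Id genes were lower in the CCD. Id1 was 47.9 to 217 TPM with a median of 104 TPM in the 19 lithium libraries, and 17 of them lay below the lowest control. Id2 was 286 to 511 TPM with a median of 342 TPM, and 18 of 19 lay below the lowest control. Id3 was 18.5 to 116 TPM with a median of 57.2 TPM and Id4 45.4 to 141 TPM with a median of 79.5 TPM, with 7 and 9 libraries below the lowest control.

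The differences, lithium minus control, were -2.06 (SE 0.25) for Id1, -0.94 (SE 0.07) for Id2, -2.16 (SE 0.37) for Id3 and -0.78 (SE 0.14) for Id4. Id2 had the smallest SE of the 4. Smad6 had a median of 32.9 TPM in controls and 23.2 TPM under lithium (-0.51, SE 0.14), Smad7 of 1.28 and 0.76 TPM (-0.48, SE 0.20) and Bambi of 45.9 and 32.8 TPM (-0.35, SE 0.12). Grem1 was 146 to 348 TPM with a median of 235 TPM, 0.36 (SE 0.11) above its controls, and 1 library lay above the highest control. By limma at an adjusted p under 0.05, all 8 were called, where 37.3% of all genes were called, 7 lower (15.2% of genes) and 1 higher (22% of genes). None of the 8 had groups without overlap, which 2.02% of genes had. The genes were chosen with this comparison in view, so nothing is read from these counts.

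How far Id1 and Id3 were lower depended on the sets. Without control set 4 the difference was -1.59 for Id1 and -1.40 for Id3, and Smad6 (-0.29) and Smad7 (-0.10) were no longer called. Without control set 1, Grem1 (0.27), Smad7 (-0.53) and Bambi (-0.24) were no longer called. Calls were also lost for Grem1 without control set 2 (0.28), for Bambi without control set 3 (-0.28) or lithium set 4 (-0.23), for Smad6 without lithium set 1 (-0.38) and for Smad7 without lithium set 1 (-0.36), 2 (-0.37) or 3 (-0.43). With each set taken as 1 value, 15.1% of genes were called and of the 8 only Id1 (-1.94) and Id2 (-0.93). This comparison was in view when the genes were chosen, so calls kept or lost here are descriptions and support no gene.

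Where a control and a lithium set had the same pattern of states they were also put side by side, with 1 set per arm and no test. With Repin1 alone high, Id1 was 178 to 226 TPM in 4 controls and 57.6 to 87.5 TPM in 6 lithium libraries (-1.47), Id2 499 to 598 and 286 to 342 TPM (-0.82) and Id3 43.4 to 88.1 and 24.1 to 34.4 TPM (-1.12). With the pattern of set 4, Id1 was 704 to 1417 TPM in 5 controls and 47.9 to 169.7 TPM in 4 lithium libraries (-3.36), and Id3 559 to 1130 and 18.5 to 65.5 TPM (-4.11), while Id2 differed by -0.87. Id2 thus differed by -0.82 and -0.87 in the 2 patterns, and Id3 by -1.12 and -4.11. Smad6 averaged 35.9 and 18.0 TPM in the first pattern and 44.7 and 25.0 TPM in the second. Grem1 was -0.11 in the first pattern and 0.28 in the second.

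At 12 h the direction was the opposite for Id1 and Id3. Id1 was 218 and 608 TPM in the 2 lithium libraries and at most 52.8 TPM in the controls, a difference of 3.12 (SE 0.43). Id3 was 65.3 and 204 TPM against at most 30.5 TPM (2.39, SE 0.52). These lithium values lay inside the range of the untreated CCD at 72 h, 178 to 1417 TPM for Id1 and 43.4 to 1130 TPM for Id3. The 12 h controls lay below every other control CCD group for both genes. Id2 was 533 and 583 TPM (0.46, SE 0.14) and Id4 67.5 and 91.1 TPM (0.55). For each Id gene both lithium libraries lay above all 3 controls, and the 2 lithium libraries themselves differed 2.79-fold in Id1 and 3.12-fold in Id3.

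Among the antagonists at 12 h, Smad7 was 1.16 and 1.07 TPM against at most 0.95 TPM (0.19), and the groups did not overlap. Smad6 was 22.0 and 43.8 TPM (0.41), Grem1 223 and 342 TPM (-0.39) and Bambi 34.4 and 27.4 TPM (-0.23), all overlapping their controls. Id1, Id2 and Id3 were called higher, 3 of 8 where 11.7% of genes were called and 7.96% were called higher, and 5 of 8 did not overlap, which 34.5% of genes did not. The call of Id2 was lost when any 1 of the 5 libraries was left out (0.39 to 0.52), under median-of-ratios scaling (0.40), with no filter and with all 8 CCD groups in 1 fit. That of Id3 was lost without lithium library 2 (1.57) and in the fit of 8 groups. Id4 was called without control library 1 (0.67) and Smad6 without lithium library 1 (0.89). This comparison was also in view when the genes were chosen. None of the 8 was called with each set taken as 1 value, where each early arm is assumed to vary like the sets at 72 h and 0.025% of genes were called. The immediate early genes summed to 5235 and 8641 TPM under lithium and 5397 to 6854 TPM in controls.

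At 24 h Id2 was the gene of the 8 that passed the test. It was 383, 433 and 443 TPM under lithium against 489 to 746 TPM in controls, with no overlap, a difference of -0.44 (SE 0.13, limma adjusted p = 0.0170). That was 1 of 8 called, where 25.7% of genes were called and 5.77% were called lower, and the call was lost without control library 1 (-0.25, adjusted p = 0.0775), without lithium library 1 (-0.38, adjusted p = 0.0766), with all 8 CCD groups in 1 fit (adjusted p = 0.0744) and with sets as values (adjusted p = 0.498, with 2.63% of genes called). Without control library 1, Id4 was called higher (0.46, adjusted p = 0.0310), a direction in which 19.9% of genes were called with all libraries.

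Id1 was 264, 289.6 and 291 TPM under lithium at 24 h (0.08, SE 0.38, adjusted p = 0.908), Id3 104, 173 and 175 TPM (0.28, SE 0.46, adjusted p = 0.706) and Id4 106, 104 and 93.4 TPM (0.23, adjusted p = 0.359), all inside the range of their controls. Grem1 was 516, 409 and 450.3 TPM and lay below its controls without overlap (-0.44, SE 0.16, adjusted p = 0.0560). Under median-of-ratios scaling Grem1 was called (-0.60, adjusted p = 0.00253). All genes together had a median of 0.13 at both 24 and 36 h as deposited and -0.01 under that scaling. Groups did not overlap for 2 of 8, Id2 and Grem1, and for 44.3% of all genes. Smad6 (0.03), Smad7 (-0.21) and Bambi (-0.17) had adjusted p of 0.933, 0.377 and 0.470. Proximal tubule markers summed to 688 to 2063 TPM in these controls and 181 to 263 TPM under lithium, and the immediate early genes to 3925 to 6422 and 1858 to 1991 TPM, whose part in these differences was not tested.

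At 36 h Id2 and Grem1 were lower under lithium. Id2 was 549, 549 and 567 TPM against 748 to 925 TPM (-0.59, SE 0.13, limma adjusted p = 0.00183), and Grem1 was 249, 289 and 239 TPM against 327 to 528 TPM (-0.72, SE 0.16, adjusted p = 0.00252), both without overlap. These were 2 of 8 called, where 34.8% of genes were called, 9.28% lower and 25.5% higher. Both calls held when any 1 of the 6 libraries was left out. With all 8 CCD groups in 1 fit Grem1 missed the threshold (adjusted p = 0.0501), and with sets as values both did (adjusted p = 0.203 for Id2 and 0.210 for Grem1, with 5.66% of genes called).

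Bambi was 23.3, 24.2 and 22.7 TPM at 36 h and also lay below its controls (-0.39, SE 0.15, adjusted p = 0.0601). It was called under median-of-ratios scaling (-0.54, adjusted p = 0.0241), under quantile normalization (-0.63, adjusted p = 0.0100) and without control library 2 (-0.54, adjusted p = 0.0173). Groups did not overlap for 3 of 8 genes and for 49% of all genes. Id1 was 1037, 938 and 845 TPM (0.37, adjusted p = 0.479), Id3 444, 429.7 and 326 TPM (0.30, adjusted p = 0.646) and Id4 149.8, 160.1 and 132 TPM (0.02, adjusted p = 0.952), and Smad6 (0.07) and Smad7 (0.00) were also not called. The principal cell markers summed to 9237 to 10165 TPM under lithium and 18273 to 21924 TPM in controls, endothelial markers to 56.8 to 99.9 and 141 to 248 TPM, and their part in these differences was not tested.

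Over the 4 times, Id2 was above its controls at 12 h and below at 24, 36 and 72 h, while Grem1 was below at 12, 24 and 36 h and above at 72 h. In control CCD, 6 of the 8 genes (not Smad6 and Bambi) were called as different between times, where 15.4% of genes were, and with sets as values only Grem1 was. The lithium difference was called as different between times for Id1, Id2, Id3, Id4 and Grem1, 5 of 8 where 8.43% of genes were, and for none with sets as values. Both rest in part on the comparisons in view and are descriptions.

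In the cTAL no member was called at 72 h. Id1 was 19.1 to 125 TPM with a median of 61.1 TPM in 12 controls and 9.93 to 57.4 TPM with a median of 29.4 TPM in 10 lithium libraries, and 3 of the 10 lay below the lowest control (-0.91, SE 0.31, unadjusted p = 0.00710, limma adjusted p = 0.213). Id3 was 24.6 to 107 TPM and 5.53 to 84.4 TPM (-0.74, SE 0.40, adjusted p = 0.447), with 4 of 10 below the lowest control. Id2 was 140.5 to 221 TPM and 134 to 256 TPM (0.11, adjusted p = 0.707). The call rate over all genes was 0.701%, 82 genes, and 1466 genes had an unadjusted p under 0.05.

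Id4 (-0.37), Smad6 (-0.12) and Bambi (-0.13) were not called in the cTAL (adjusted p = 0.508, 0.886 and 0.679), and Grem1 and Smad7 were below the filter of 1 TPM in 10 libraries. None of the 8 had groups without overlap, which 0.0171% of genes had. Id1 was called in the cTAL without control set 3 (-1.31, adjusted p = 0.0119) and without lithium set 3 (-1.17). In the 2 patterns shared by a control and a lithium set Id1 differed by -0.69 and -1.37 and Id3 by -1.49 and -1.58. These have 1 set per arm and no test. Id2 differed by -0.60 in one and 0.13 in the other. With sets as values the share of all genes called was 0% and no member was called.

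The lithium difference of Id2 was -0.94 in the CCD and 0.11 in the cTAL, a difference between them of -1.06 (SE 0.13). For Id1 the difference between segments was -1.15 (SE 0.41), and it was -0.68 without CCD control set 4 and -0.76 without cTAL control set 3. These 2 of 8 were past the threshold (with sets as values Id2 alone, where 3.71% of genes were), where 15.3% of genes were called and 3.44% were called lower. For Id3 it was -1.41 (SE 0.59), for Id4 -0.42, for Grem1 0.46, for Smad6 -0.39, for Smad7 -0.36 and for Bambi -0.22, none of them past it. The CCD libraries of this contrast were in view when the genes were chosen, so nothing is read from these counts.

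Untreated CCD and cTAL had different levels of most of the 8 genes. The comparison shares its control CCD libraries with the 72 h lithium comparison and is a description. Grem1 was 0.08 to 1.05 TPM in the 12 cTAL controls against 119 to 301 TPM in the 17 CCD controls (7.08 higher on the log2 scale). Id4 was 4.66 to 20.1 TPM in the cTAL, below all CCD controls (3.53), and Id1 (3.05, SE 0.29) and Id2 (2.05) were likewise without overlap. Id3 was 24.6 to 107 TPM in the cTAL (2.14, SE 0.41) and 11 of 17 CCD libraries lay above the highest cTAL library.

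Bambi was the member that was higher in the cTAL, 169 to 412 TPM against 23.4 to 65.2 TPM (-2.51 for CCD minus cTAL), with no overlap. Smad6 was 3.79 to 33.1 TPM in the cTAL and 0.59 (SE 0.19) higher in the CCD, and the difference was 0.32 under median-of-ratios scaling, 0.38 without CCD control set 4 and 0.16 without cTAL control set 2, none of which passed the threshold. Smad7 was 0.30 to 3.93 TPM in the cTAL (0.36), and it passed the threshold without CCD control set 3 (0.54) or cTAL control set 4 (0.78). In all, 7 of 8 were called, where 68.4% of genes were, and 5 of 8 did not overlap, against 14.5% of genes. With sets as values 6 were called (47.8% of genes). All genes together had a median of 0.28 in this comparison as deposited and 0.02 under median-of-ratios scaling. The cTAL controls had more endothelial (239 to 669 TPM) and immune (2078 to 6351 TPM) marker RNA than the CCD controls (22.2 to 226 and 19.2 to 612 TPM), and its part in these levels was not tested.

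The rest of the pathway was read from lists of 14 ligands (with inhibin subunits among them), 14 receptors and co-receptors and 6 signal-carrying Smads. Further lists held 13 other secreted antagonists, 10 other intracellular brakes, 11 other targets and 3 helix-loop-helix partners of Id proteins. At 72 h in the CCD 1 of 4 tested ligands was lower (Bmp3, -0.58), 4 of 14 receptors were lower (among them the co-receptor Tgfbr3, -0.63, and the type I receptor Bmpr1b, -0.32) and 0 of 5 signal-carrying Smads were called, where 37.3% of all genes were called and 15.2% were called lower. Of 7 antagonists 2 were higher, Fstl1 (0.80) and Nbl1 (0.26), and of 10 brakes 2 were lower, the growth inhibitor Tob1 (-1.09) and the phosphatase Ctdsp1 (-0.15). The medians of these lists, -0.36, -0.20, -0.15, 0.19 and -0.17, stood beside a median of 0.00 over all genes. Of the helix-loop-helix partners Tcf4 was lower (-0.67). Of 2 other targets tested the cell cycle inhibitor Cdkn2b was higher (1.07) and Ctgf was lower (-1.11). Cdkn2b was near the floor, with medians of 0.09 TPM in controls and 1.51 TPM under lithium, and those of Ctgf were 23.6 and 10.0 TPM. Bmp3 was also low, with medians of 2.04 and 1.06 TPM.

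At 72 h other lists moved as well. All 8 endothelial markers tested were lower (median -0.99), summing to 22.2 to 226 TPM in controls and 8.59 to 86.8 TPM under lithium, and 10 of 13 immediate early genes were lower (median -1.48), from 3508 to 7658 TPM to 614 to 2542 TPM without overlap. Principal cell markers were lower in 9 of 10 and intercalated cell markers in 9 of 9 (medians -0.45 and -0.56). Whether these have a part in the lower Id levels was not tested.

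At 12 h 1 of 5 tested genes of the ligand list was higher, Inha (1.13). It encodes the alpha subunit of inhibins, which oppose activins. Of 14 receptors 1 was higher (Acvrl1, 13.9 to 18.2 TPM against 5.21 to 7.94 TPM). Nbl1 was higher (0.40) and 1 of 10 brakes was lower (Pmepa1, -1.73), where 11.7% of all genes were called. At 24 h 2 of 7 other secreted antagonists were higher, among them Nbl1 (0.76), 1 of 14 receptors was higher (Acvr2a, 0.41) and 0 of 5 ligands were called, where 25.7% of all genes were called. At 36 h 2 of 6 ligands were lower, Bmp3 (-1.18) and Bmp4 (-0.74), and 2 of 5 signal-carrying Smads were higher, Smad2 (0.33) and Smad1 (0.37). At 36 h 0 of 14 receptors were called, where 34.8% of all genes were. Of 10 brakes 2 were higher and 1 was lower at 24 h, and likewise at 36 h. Tob2 was higher at 24 h (0.46), Ctdsp1 was higher at 36 h (0.44) and Tob1 was lower at both (-0.74 and -0.44).

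In the cTAL no gene of these lists was called. Between the untreated segments the receptor Bmpr1b was 19.7 to 66.8 TPM in the CCD and 0 to 0.41 TPM in the cTAL (5.13 higher), and the ligand Bmp4 was 0.02 to 11.35 TPM in the CCD and 32.5 to 74.0 TPM in the cTAL (-2.99). Smad1 was 0.74 and Smad2 1.13 higher in the CCD, the brake Pmepa1 was 2.02 lower there on the log2 scale, and of the helix-loop-helix partners Tcf3 was higher (1.15) and Tcf4 lower (-1.26).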

How the data were processed

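Polyadenylated RNA of 75 libraries was read into cDNA with the SMARTer V4 kit, amplified for 15 cycles and made into libraries with Nextera XT, per the labels' protocols. This kit marks no strand, so reads of overlapping antisense genes cannot be told apart. The authors deposited a table of TPM for 32754 genes, and the submitters' processing notes name STAR 2.5.2b, RSEM 1.2.31 and the build Rnor_6.0. TPM keeps no read numbers, so depth is unknown, and 10888 to 12411 genes per library were at 1 TPM or more.

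Samples were grouped by segment, agent and time from the labels. limma 3.58.1 (R 4.3.3, trend, two-sided, Benjamini-Hochberg adjustment over all genes tested) was run on log2(TPM + 1), with a pseudocount of 1, for genes at 1 TPM or more in as many libraries as the smaller group. Called means an adjusted p under 0.05. The 6 early groups were fitted together for contrasts at 12, 24 and 36 h, the 4 groups of 72 h for those between segments, and the 8 CCD groups for those between times. Summaries used Python 3.11.15 with numpy 2.4.6 and pandas 2.3.3, and figures matplotlib 3.10.9. On simulated data, 98 of 100 changes of 1 log2 unit were recovered in the CCD at 72 h, 85 at 12 h, 91 at 24 h, 92 at 36 h, 90 in the cTAL and 95 between segments. Simulated libraries varied independently with no library sets, unlike these data, so the rates do not hold where sets differ.

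Library sets were defined by 5 genes with separate high and low states. The 8 genes, the lists and the alternatives were chosen with earlier results of these data known. The rule for naming was all 8 genes, up to 2 called genes of smallest p per pathway list and comparison, and the 5 genes most like Id1 and Id3. Of 156 listed genes 152 were in the table. Some results for listed genes that were lower are not reported here. Alternatives were the pseudocount, the filter, scaling, set means, leaving out libraries or sets, a joint fit and a replicate block. Comparisons within a pattern of states and set means with the pattern as a block were added after seeing the data. No 2 libraries were identical (highest Pearson r 0.995).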

Additional observations from a re-analysis of the deposited data

Results flagged for a closer look

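The lithium difference was called as different between segments for 2 of the 8 genes, where 15.3% of genes were called. Between times it was called as different for 5 of the 8, where 8.43% of genes were. At 72 h it was lower in the CCD than in the cTAL by -1.15 for Id1 and -1.06 for Id2 on the log2 scale, by the contrast of the differences in limma. Over 12, 24, 36 and 72 h in the CCD, the lithium difference spanned 5.19 log2 units for Id1, 4.54 for Id3, 1.40 for Id2, 1.34 for Id4 and 1.08 for Grem1, by limma's test of equal differences at the 4 times. These values rest in part on comparisons with which the genes were chosen and are descriptions. With sets as values, the contrast between segments was called for Id2 and the test over times for none of the 5. In the lithium cTAL group, the one of a size tested for a library far from the rest, none of the 8 genes had one.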

How the results depend on the processing

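Single genes mostly kept their side of the threshold. Over all comparisons and alternatives, 1180 values of the 8 genes were counted as unchanged, 76 lost a call and 24 gained one. In addition 1 reversed, Grem1 in the CCD at 72 h (-0.11 with Repin1-pattern libraries only). A value called in neither fit counted as unchanged whatever its sign. A fit of 1 pattern of states counted as unchanged whatever its call, unless a called gene changed sign. Spans over time and SDs, which have no direction, were included. Taking sets as values lowered the counts most. Genes called went from 4338 to 1759 in the CCD at 72 h, 1411 to 3 at 12 h, 3059 to 313 at 24 h, 4198 to 683 at 36 h, 82 to 0 in the cTAL, 2000 to 485 for the difference between segments (531 with the pattern as a block), 1974 to 15 between control times and 1189 to 17 for the lithium difference over time. Of the 8 genes it left 2 (from 8), 0 (from 3), 0 (from 1), 0 (from 2), 0, 1 (from 2, also with the pattern as a block), 1 (from 6) and 0 (from 5) in the same order. It uses fewer samples, and at 12, 24 and 36 h each arm is 1 set by definition and takes its spread from the sets at 72 h. No other cause was tested.

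With all 8 CCD groups in 1 fit, 280, 1232 and 1932 genes were called at 12, 24 and 36 h, and 1, 0 and 1 of the 8. Leaving out 1 library gave 1 to 3 of the 8 at 12 h (1 without lithium library 2), 0 to 1 at 24 h, 2 to 3 at 36 h, 5 to 6 between control times and 4 to 5 for the lithium difference over time. Median-of-ratios scaling gave 2 at 24 h. Without control set 1, 5 were called in the CCD at 72 h. In the cTAL 1 of the 8 was called without control set 3 or lithium set 3. Genes called there were 31 with no filter, 196 and 1 without control sets 3 and 4, and 23, 1 and 223 without lithium sets 1, 2 and 3. For the difference between segments the 8 gave 1 with a pseudocount of 0.1, with no filter and without CCD control set 2, CCD lithium set 2 or 4, cTAL control set 1 or 4, or cTAL lithium set 2 or 3, and 4 without CCD control set 3 or cTAL lithium set 1. In the spread of control CCD, 2 genes exceeded the 90th percentile, and 4 with a pseudocount of 5. The cause of these changes was not tested.

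Replicate numbers were not shown to pair libraries, and correlations of deviations from group means cannot settle it. Same-numbered libraries of the CCD at 72 h had -0.17 to 0.27 (8 of 17 pairs over 0.1) and those of the cTAL -0.08 to 0.44 (3 of 10). At 12, 24 and 36 h, 1 of 2, 1 of 3 and 0 of 3 pairs were over 0.1. The best lithium match of a control had its own number for 1 of 17 in the CCD at 72 h and 1 of 10 in the cTAL. At 12, 24 and 36 h this held for 1 of 2, 2 of 3 and 1 of 3. A replicate block gave 4230 genes at 72 h, 1203 at 12 h, 2981 at 24 h, 4126 at 36 h, 1 in the cTAL, 8095 and 1932 between segments without and with lithium, 3705 between control times and 1454 for the lithium difference over time, with 1 of the 8 in place of 2 for the difference between segments, 2 in place of 3 at 12 h, 7 in place of 6 between control times and 6 in place of 5 for the lithium difference over time.

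Scaling moved the share of called genes that were higher. It was 59.1% at 72 h, 67.8% at 12 h, 77.5% at 24 h, 73.3% at 36 h, 15.9% in the cTAL, 72.8% for CCD against cTAL and 77.5% for the difference between segments. Under median-of-ratios scaling these were 50.7%, 53.7%, 52.3%, 51.4%, 28%, 50.9% and 56.4%, and under quantile normalization 46.0%, 51.4%, 51.8%, 45.2%, 30.7%, 52.8% and 52.7%. Depth is unknown, so Grem1 in the cTAL and Smad7, near 1 TPM, have levels whose counting error cannot be given.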
